A study of Homo sapiens with 6 samples.

Results

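The oligoadenylate synthetase genes OAS1, OAS2, OAS3 and OASL were followed in SMAD4-knockout PANC-1 cells, an established line from a human pancreatic carcinoma. The cells had been transfected with SMAD4 in 1 of 2 forms. The OAS genes were taken by symbol, 1 row per symbol, and are 4 of the 60835 distinct symbols in the deposited count table. All 4 passed the filter on low counts, among the 15911 genes tested. One group received wild-type (WT) SMAD4 and the other SMAD4 R272K, an arginine-to-lysine substitution. Each group had 3 libraries of polyadenylated RNA from day 3, and both shared the SMAD4 knockout and the transfection. The vector, the clonality of the knockout cells and whether each library had a culture of its own are not stated in the labels. The p-values below therefore weigh the spread among these 6 samples, part of which may be technical. Knockout cells without SMAD4 were not analysed here.

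Oligoadenylate synthetases are interferon-induced enzymes that bind double-stranded RNA, the usual mark of a replicating virus, and then join ATP into short oligoadenylates with an unusual linkage. These oligoadenylates are second messengers of the antiviral response, which leads to RNA decay and a halt in protein synthesis. OAS1 is the smallest of the enzymes, OAS2 and OAS3 carry repeated synthetase units, and OAS3 prefers long RNA. OASL has the synthetase fold without the enzyme activity. It carries ubiquitin-like domains and is known to enhance signalling by the RNA sensor RIG-I and to restrain the DNA sensor cGAS.

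In cells with R272K SMAD4 the transcripts of OASL, OAS2 and OAS1 were lower, by 3.87-fold, 3.70-fold and 2.20-fold. OAS3, by far the most abundant member, was estimated 1.18-fold lower and was not called. Thus 3 of 4 members were called lower and 0 higher, at an adjusted p below 0.05 in edgeR's quasi-likelihood test, where 0.528% of all genes tested were called lower and 1.21% in either direction. SMAD4 transcript itself was lower in every R272K library, at 40.6 to 45.6 CPM (counts made comparable between libraries by their TMM-scaled totals) against 83.4 to 93.6 CPM with WT (log2 fold change -1.03, SE 0.075, adjusted p = 6.28e-06). The substitution and the amount of SMAD4 transcript therefore cannot be told apart in anything that follows.

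Library totals over distinct symbols ran from 14776148 to 17706201 counts. WT replicate 1 stood apart from the other libraries, at -31.3 on the first principal component against -9.56 to 15.6, and its levels relative to the other WT libraries were lower in longer genes (Spearman's rho -0.41 over 15911 genes, which are not independent replicates). Of the 5 epithelial markers, the keratin genes KRT8, KRT18 and KRT19 were present in every library at 127 CPM or more. The other 2 were low, KRT7 at 2.80 to 5.59 CPM and EPCAM at 3.08 to 5.19 CPM over the libraries. All 5 summed to 3026 to 3770 CPM with WT and 3798 to 4106 CPM with R272K SMAD4, nearly all of it KRT8 and KRT18. The part of that difference in the results below was not tested. The summed level of 5 leukocyte markers was 2.30 to 3.59 CPM with WT and 2.40 to 3.74 CPM with R272K SMAD4, nearly all of it CD14, and the leukocyte marker PTPRC had at most 4 counts in a library. Summed fibroblast and endothelial markers stayed at or below 1.44 CPM in every library.

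On the deposited GRCh38 coordinates OAS1 (ENSG00000089127) lies on chromosome 12 at 112905856 to 112933219. OAS3 (ENSG00000111331) follows at 112938051 to 112976460 and OAS2 (ENSG00000111335) at 112978395 to 113011723. These 3 genes run head to tail on the plus strand within 105868 bases, with 4831 bases between OAS1 and OAS3 and 1934 between OAS3 and OAS2. OAS3, estimated lower but not called, thus sits between OAS1 and OAS2, which were both called lower. OASL (ENSG00000135114) lies 8006039 bases further along on the minus strand, at 121017763 to 121039246. An antisense gene, AC004551.1, overlaps all 3 clustered genes, from a point inside OAS1 to beyond the end of OAS2, but had 1 count in the 6 libraries together. RPH3A, next to OAS1, had 13 counts in all, IMMP1LP2, beyond OAS2, had 2, and the OASL neighbour OASL2P had 0. The labels do not say whether reads were counted by strand.

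The sequences just before the start of OAS1 and OAS3 are shown because these genes adjoin on the chromosome and yet OAS1 was called and OAS3 was not. Both come from the RefSeq promoter table (GRCh38.p14), which matched 2 of the 4 members. Its starts, 112906962 for OAS1 and 112938474 for OAS3, lie inside the deposited spans of these genes. The bases before the deposited starts were not searched. Each run holds the 160 bases that end at the base before the RefSeq start, 5′ to 3′ on the plus strand, chr12:112906802-112906961 for OAS1 and chr12:112938314-112938473 for OAS3. Capitals mark matches to the core of the interferon-stimulated response element, searched as 2 GAAA repeats with any 2 bases between them, or to GAAANGAAA, the same repeats with any 1 base between them, a form added after the sequences were seen.
OAS1: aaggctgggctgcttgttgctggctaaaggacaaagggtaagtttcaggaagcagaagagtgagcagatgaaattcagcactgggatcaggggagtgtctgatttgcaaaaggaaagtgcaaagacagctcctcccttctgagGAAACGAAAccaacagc
OAS3: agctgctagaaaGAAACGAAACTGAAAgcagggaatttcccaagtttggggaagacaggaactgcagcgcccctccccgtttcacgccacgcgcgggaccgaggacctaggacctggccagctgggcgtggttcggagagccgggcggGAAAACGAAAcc

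In the 250 bases before its start, searched on both strands, OAS3 held 2 matches to the response element core, beginning 143 and 12 bases before the start, and OAS1 held 0. GAAANGAAA occurred once in each gene, beginning 17 bases before the start of OAS1 and 148 before that of OAS3, where it overlaps the core match. Of 35116 promoter windows of this length in the table, 3.02% held the core and 2.69% held GAAANGAAA. The gamma-activated form TTCNNNGAA was found in OAS1, 168 bases before the start, and in 6.57% of windows. The SMAD element GTCTAGAC was in neither gene and in 0.182% of windows. Its short form CAGAC was in OAS1, on the minus strand, and in 38.0% of windows. A match is a stretch of letters and not a measured binding site.

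OAS1, the smallest synthetase, was read at 141, 93 and 105 counts in WT replicates 1 to 3, or 8.04, 6.29 and 6.88 CPM. The R272K replicates gave 54, 47 and 46 counts, or 3.54, 3.13 and 3.00 CPM. Every R272K library was below every WT library, with WT replicate 1 the highest of all. Mean OAS1 fell from 7.07 ± 0.892 to 3.22 ± 0.286 CPM (SD, n = 3 in each group). The log2 fold change was -1.14 (SE 0.163, 95% interval -1.49 to -0.78, adjusted p = 0.00338). The call held with each library left out, with adjusted p up to 0.0446. It was lost by limma on the deposited TPM values, which divide by gene length as well as by library total: the adjusted p was 0.0515 with a pseudocount of 1 and 0.0663 with 0.1.

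OAS2, an enzyme with repeated synthetase units, was the least abundant member, with 70, 86 and 83 counts in the WT libraries, or 3.99, 5.81 and 5.44 CPM. It had 23, 19 and 20 counts in the R272K libraries, or 1.51, 1.26 and 1.30 CPM. The groups were well apart, and WT replicate 1 was the lowest of the WT libraries, the opposite of its place for OAS1. Mean OAS2 fell from 5.08 ± 0.962 to 1.36 ± 0.132 CPM (SD, n = 3 in each group). The log2 fold change was -1.89 (SE 0.225, 95% interval -2.37 to -1.40, adjusted p = 0.000646), the fourth lowest of all genes tested. Only 62 counts stand behind the R272K value, with an exact Poisson 95% interval of 47.5 to 79.5 that covers counting error alone, against 239 counts with WT SMAD4.

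OAS3, which prefers long RNA, had 2364, 2457 and 2356 counts in the WT libraries, or 134.8, 166.1 and 154.4 CPM. In the R272K libraries it had 1913, 1928 and 2020 counts, or 125.6, 128.3 and 131.6 CPM. The groups did not overlap in CPM, but WT replicate 1 lay closer to the R272K libraries than to the other WT libraries. Means were 151.8 ± 15.8 and 128.5 ± 3.01 CPM (SD, n = 3 in each group). The log2 fold change was -0.24 (SE 0.076, 95% interval -0.40 to -0.08, unadjusted p = 0.0076, adjusted p = 0.166). On the TPM scale WT replicate 1 (40.71) fell inside the R272K range of 40.65 to 43.28, with the other WT libraries at 54.2 and 51.5.

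The OAS3 result turned on WT replicate 1. Without that library the log2 fold change was -0.32 (adjusted p = 2.18e-05) and OAS3 was called lower, in a fit that called 2.42% of genes lower. OAS3 was the longest member by the authors' length scaling, at 2.78 times the median of the genes tested, and the smoothed trend with gene length put WT replicate 1 0.19 lower (log2) at that length. When the trend with length was taken out of every library, a fit chosen after seeing the data, OAS3 was also called lower (-0.31, adjusted p = 0.00172), in a fit that called 1.89% of genes lower. OASL, at 0.937 times the median length, had a trend value of 0.04 in the same library. The part of this trend in the OAS3 result was not tested beyond these fits.

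OASL, the family member without synthetase activity, had 365, 263 and 262 counts in the WT libraries, or 20.8, 17.8 and 17.2 CPM. The R272K libraries had 85, 76 and 58 counts, or 5.58, 5.06 and 3.78 CPM. The lowest WT library was above the highest R272K library by a wide margin. Mean OASL fell from 18.6 ± 1.95 to 4.80 ± 0.927 CPM (SD, n = 3 in each group). The log2 fold change was -1.95 (SE 0.145, 95% interval -2.27 to -1.64, adjusted p = 7.82e-06). This was the second lowest fold change of the 15911 genes, and the call held in all 18 alternative fits.

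**Figure D1:**
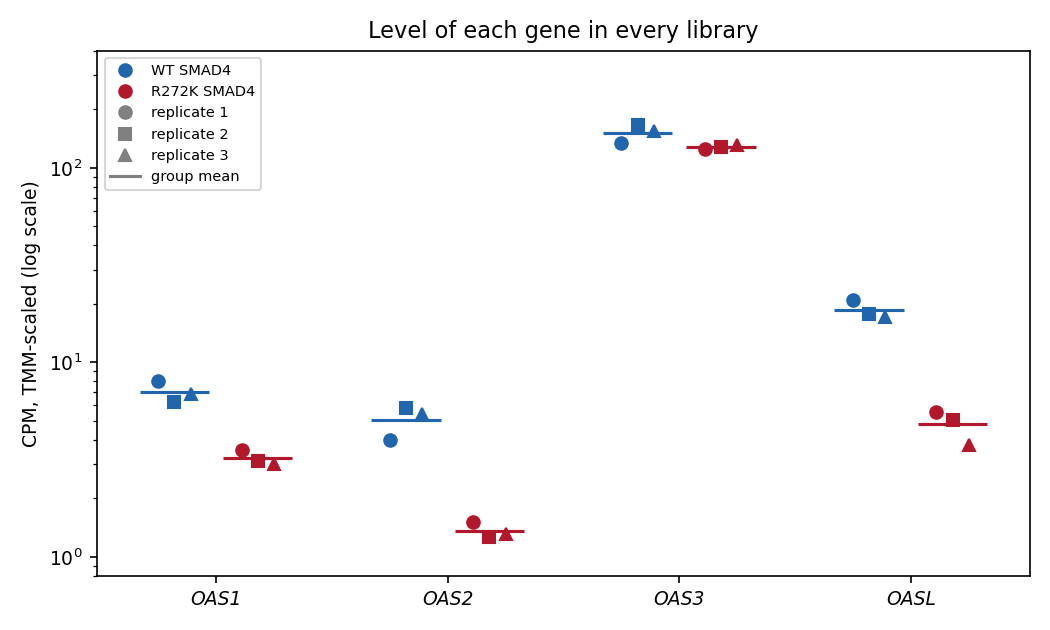
Level of each OAS gene in every library, in TMM-scaled CPM on a log axis. Points are libraries (shape gives the replicate), lines are group means; OAS1, OAS2 and OASL are clearly lower in the 3 R272K libraries and OAS3 differs little.

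All 4 members had R272K libraries below the WT libraries in CPM with no overlap, as did 10.4% of all genes tested. In TPM this held for 3 members, all but OAS3, and for 8.88% of genes. The plot of all genes tested places OASL and OAS2 at its lower edge, whereas OAS3 lies close to the line of no change. The median log2 fold change of the 4 members was -1.51, beside 0.00 over all genes tested.

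**Figure D2:**
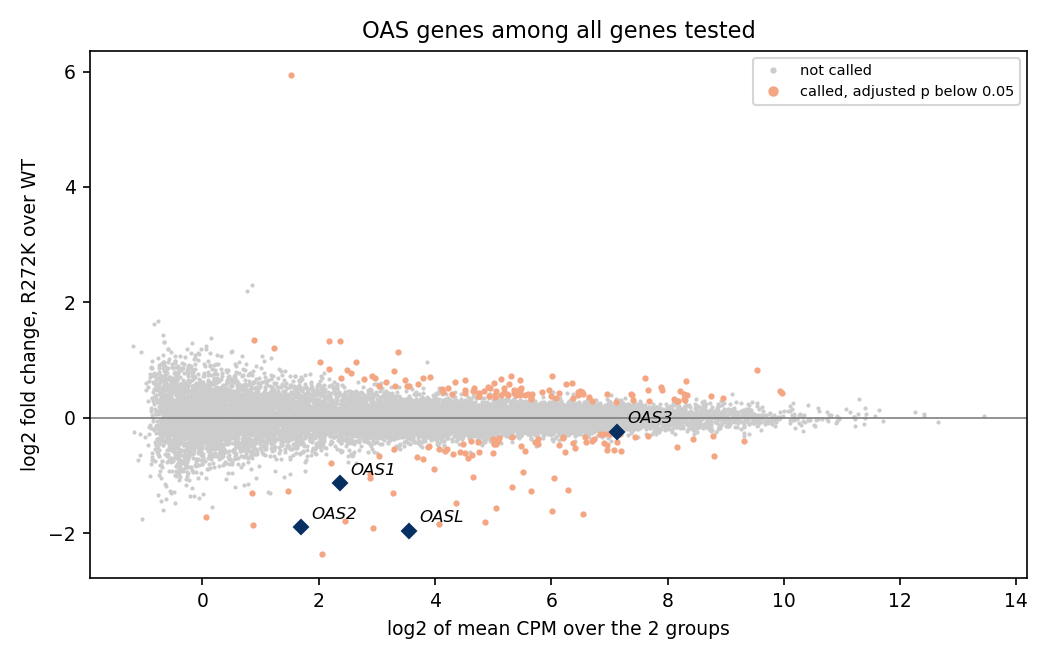
Each point is 1 of the 15911 genes tested, with the log2 of its mean CPM on the x axis and its log2 fold change (R272K over WT) on the y axis; called genes are orange and the OAS genes are blue diamonds. OAS2 (-1.89) and OASL (-1.95) are among the lowest points, OAS1 lies at -1.14 and OAS3 at -0.24.

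Levels were compared between members per length, on the deposited TPM values. With WT SMAD4 the order was OAS3 at 48.8 ± 7.14, OASL at 17.6 ± 0.898, OAS1 at 2.90 ± 0.246 and OAS2 at 2.83 ± 0.652 TPM (SD, n = 3), and OAS1 and OAS2 overlapped. With R272K SMAD4 it was OAS3 at 41.7 ± 1.37, OASL at 4.62 ± 0.854, OAS1 at 1.34 ± 0.113 and OAS2 at 0.763 ± 0.073 TPM (SD, n = 3). There all neighbours in the order were apart in every library. OAS3 stood 2.77 times above OASL in mean TPM with WT SMAD4 and 9.03 times above it with R272K SMAD4.

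OAS3 made up a larger part of the family's summed level in every R272K library than in any WT library. Summed TPM over the 4 members was 64.5, 77.3 and 74.6 in the WT libraries and 48.3, 48.1 and 49.0 in the R272K libraries, 32.8% lower in the mean (exact permutation test, two-sided, p = 0.1, the smallest that 3 against 3 libraries can give). OAS3 made up 63.1% to 70.1% of that sum with WT and 84.1% to 88.4% with R272K SMAD4. OASL made up 22.2% to 28.9% with WT and 7.52% to 11.1% with R272K SMAD4. The difference in mean OASL share was -15.1 percentage points in TPM and -6.78 as a share of summed counts, and that of OAS3 was 18.7 and 10.1. OAS2 went from 3.89% ± 0.575 to 1.57% ± 0.153 and OAS1 from 4.07% ± 0.718 to 2.78% ± 0.244 (SD, n = 3 each). No share overlapped between groups, and each of the 4 exact permutation tests gave p = 0.1, also after Benjamini-Hochberg adjustment over the 4 members, so none could pass the threshold. The 4 shares of a library add up to the whole, so a lower share of some members raises that of the rest. They are not 4 separate results, and how often shares of other genes stand apart was not tested.

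**Figure D3:**
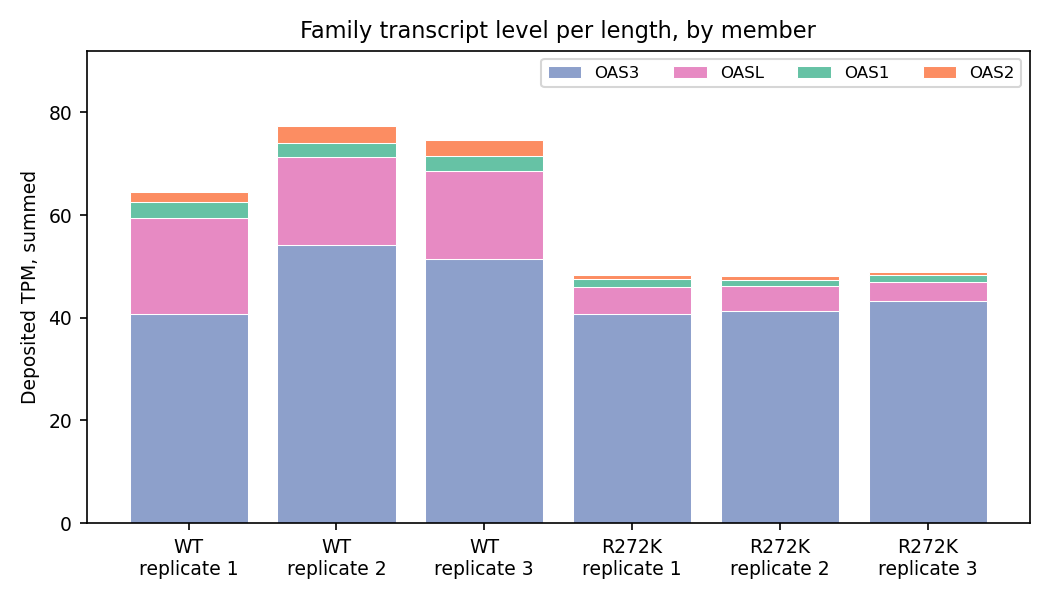
Stacked bars give the deposited TPM of the 4 OAS genes in each library, starting at 0. The OAS3 segment is of similar height in WT replicate 1 and the R272K libraries, while the OASL segment spans 17.0 to 18.6 TPM with WT and 3.68 to 5.36 TPM with R272K SMAD4.

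Whether members changed by different amounts was asked with the log2 ratio of 2 members within each library, which needs no scaling between libraries. It does keep the trend with gene length. In WT replicate 1 that trend (log2) was -0.19 for OAS3, -0.138 for OAS1, -0.072 for OAS2 and 0.042 for OASL. Its part in the ratios and in the shares was not tested. OAS3 relative to OASL was higher by 1.72 with R272K SMAD4, from 3.03 ± 0.290 to 4.75 ± 0.323 (SD, n = 3 each). OAS2 relative to OAS3, its neighbour on the chromosome, was lower by a difference of -1.63, from -4.90 ± 0.141 to -6.53 ± 0.161. OAS1 relative to OAS3 differed by -0.89 and relative to OASL by 0.84. OAS1 relative to OAS2 differed by 0.74. These 5 ratios did not overlap between groups, and each had p = 0.1 in the exact permutation test, 0.12 adjusted over the 6 pairs. The ratios share members, so they are not separate results, and how often ratios of other genes stand apart was not tested. OAS2 relative to OASL differed by 0.10 and overlapped (exact permutation p = 0.8, adjusted 0.8), and its sign changed when WT replicate 1 or R272K replicate 3 was left out.

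Of 6 genes of the oligoadenylate pathway outside the family, 0 were called by edgeR and 0 had an unadjusted p under 0.05, as 14.3% of all genes tested did. DESeq2, which called 1.75% of all genes, and limma-voom, which called 1.23%, also called 0 of them. ABCE1, a ribosome recycling factor, had the smallest p (158.0 and 147.6 CPM, log2 fold change -0.10, adjusted p = 0.503). The rest of the list was PDE12, which degrades oligoadenylates, AKAP7, FLNA, IQGAP1 and GSPT1, with log2 fold changes from -0.07 to 0.14. The median of the list was 0.01.

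The other genes of the pathway came from 5 more lists. Of 38 tested genes in all 6 lists, 6 were called lower, 0 higher and 32 were not called. Over all genes tested 0.528% were called lower and 0.685% higher. Among 8 tested sensors of foreign nucleic acid and their adaptors, 1 was called lower. This was IFIH1, which encodes the RNA sensor MDA5, at 91.4, 100.8 and 95.1 CPM with WT and 70.0, 72.9 and 70.2 CPM with R272K SMAD4 (-0.43, SE 0.066, adjusted p = 0.00544). Its libraries did not overlap, but the call was lost without R272K replicate 1 or 3 and in the 3 limma fits to TPM. EIF2AK2, the RNA-activated kinase PKR, was not called, at 306.0 and 252.3 CPM (-0.28, edgeR unadjusted p = 0.00335, adjusted p = 0.118). STING1, the adaptor of cGAS, stood at 1.33 and 2.00 CPM (0.59, adjusted p = 0.363). In this list the groups did not overlap for 2 genes with R272K lower, IFIH1 and EIF2AK2, and for 2 with R272K higher. Over all genes tested these shares were 10.4% and 10.9%.

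Among 4 tested interferon genes 3 were called lower, where 0.528% of all genes tested were. Each of the 3 had a log2 fold change between those of OAS1 and OASL. IFNL1, a type III interferon, fell from 29.5, 26.8 and 22.1 CPM with WT to 6.89, 8.12 and 6.90 CPM with R272K SMAD4 (-1.84, SE 0.128, adjusted p = 4.91e-06). IFNL2 (-1.78, adjusted p = 8.11e-05) and IFNL3 (-1.91, adjusted p = 2.75e-05) fell too. IFNL2 and IFNL3 are near-identical, and how reads matching both were counted is not stated. IFNE, an epithelial type I interferon, was not called (-0.16, adjusted p = 0.815). The 3 other listed ligands, named after their values were seen, were too low to test. IFNB1 had 24 counts over the WT libraries and 4 over the R272K libraries, and IFNG and IFNK had 0.

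Among 9 receptor and JAK kinase genes 0 were called by edgeR, although 4 had an unadjusted p under 0.05, all higher, where 7.18% of all genes tested did, and their groups did not overlap, as for 10.9% of genes. DESeq2 and limma-voom also called 0 of the 9, while JAK1 was called higher without WT replicate 1 (0.13, adjusted p = 0.0362), in a fit that called 2.94% of genes higher. The 4 genes were JAK1, a kinase shared by interferon receptors (0.21, adjusted p = 0.213), the type I receptor genes IFNAR1 (0.16, adjusted p = 0.262) and IFNAR2 (0.40, adjusted p = 0.284), and the kinase gene TYK2 (0.14, adjusted p = 0.35), the last 2 named after their values were seen. Of 7 STAT and IRF genes 1 was called lower, where 0.528% of all genes tested were. IRF7, which amplifies interferon production, fell from 23.4, 23.1 and 18.8 CPM to 13.0, 14.8 and 17.1 CPM (-0.54, adjusted p = 0.0487), a call that 10 of the 18 alternatives lost. IRF5 (-0.31, adjusted p = 0.415) and IRF1 (0.09, adjusted p = 0.599) were not called.

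Of 4 genes, for feedback inhibitors of interferon signalling and for the modifier ISG15, 1 was called lower. ISG15, the ubiquitin-like modifier, fell from 128.5, 108.8 and 92.4 CPM with WT to 41.5, 45.0 and 51.4 CPM with R272K SMAD4 (-1.26, SE 0.112, adjusted p = 3.51e-05), and kept its call in all 18 alternatives. USP18, which removes ISG15 and damps receptor signalling, was not called (-0.48, adjusted p = 0.0724), nor was SOCS3 (-0.05, adjusted p = 0.771). Thus 6 of the 38 pathway genes, and 3 of the 4 OAS genes, were called lower, where 0.528% of all genes tested were. Of these 6, 3 are the related genes IFNL1, IFNL2 and IFNL3. The members and lists were chosen with earlier results of these data known, so this contrast is a description and not a test.

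**Figure D4:**
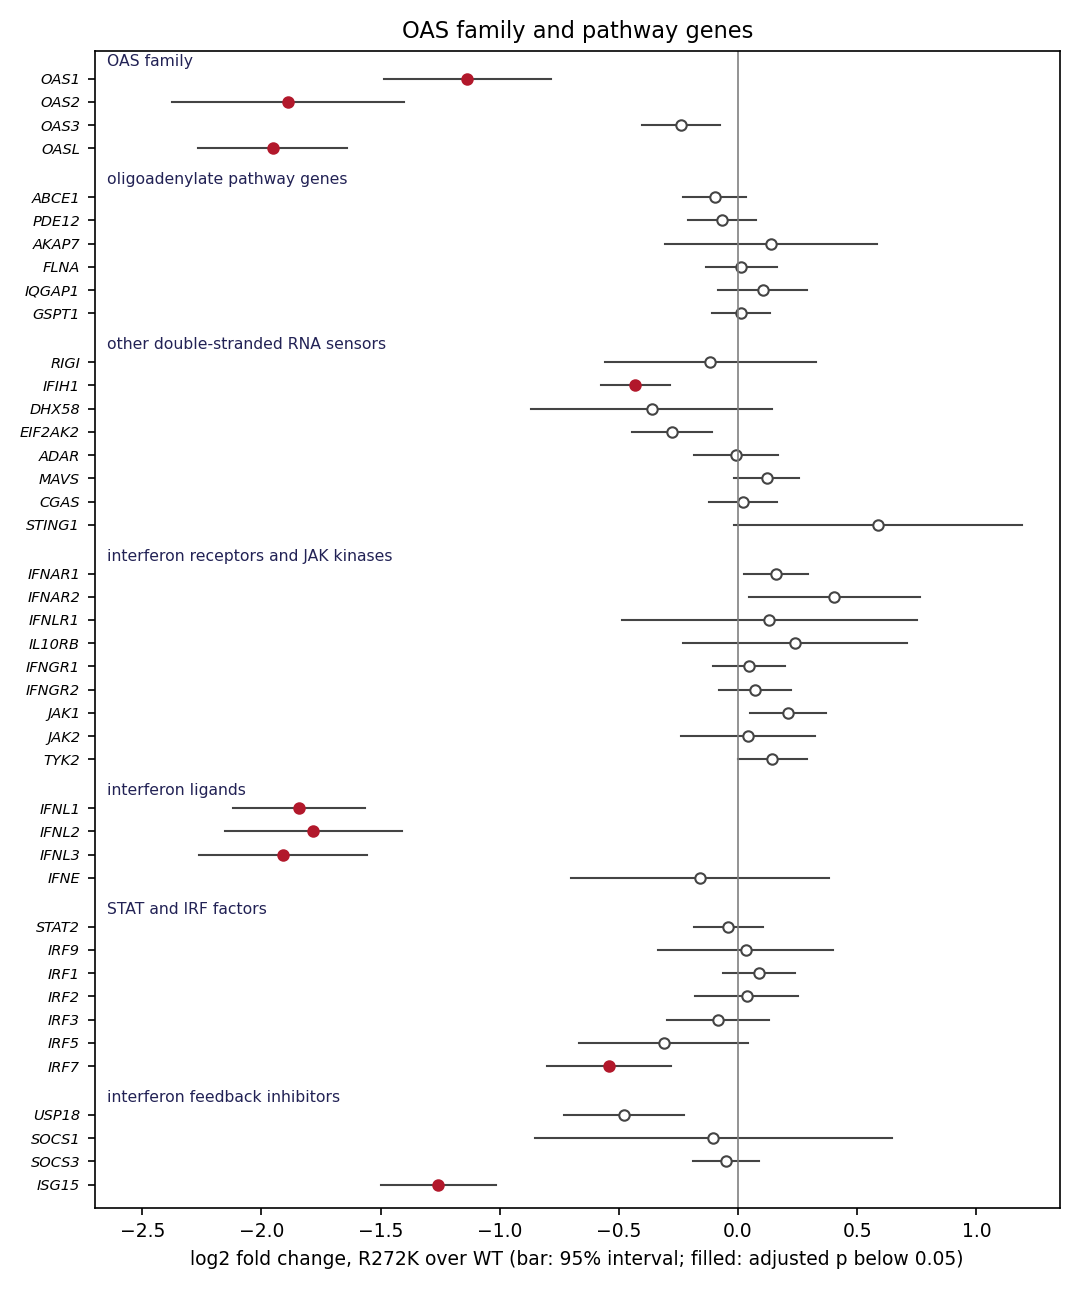
Log2 fold changes (R272K over WT) of the 4 OAS genes and the 38 tested pathway genes, by list, with 95% intervals from edgeR; filled points have an adjusted p below 0.05. OASL, OAS2 and the IFNL genes lie near -1.9, OAS3 at -0.24 with its interval below 0, and the 6 oligoadenylate pathway genes span 0.

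The genes whose profile over the 6 libraries was most like the mean of the 4 standardised OAS profiles were CYP1B1, a cytochrome P450 (Pearson's r 0.995), STEAP3, a metalloreductase of iron uptake (0.994), MIEF1, a mitochondrial fission factor (0.992), FAM104B (0.992) and RPL7L1, a ribosomal protein-like gene (0.991). This is a description over 6 libraries that share the group difference, and 118 of 14490 genes reached 0.95. CYP1B1 was called (545.7 and 345.8 CPM, -0.66, adjusted p = 3.51e-05), and the other 4 were not (adjusted p 0.143 to 0.395). SMAD4, whose transcript was also lower in every R272K library, ranked 10 by the same measure (r 0.989). Among the members themselves OAS1 and OASL were the most alike (r 0.989), and OAS1 and OAS3 the least (0.651), with WT replicate 1 the highest library for OAS1 and the lowest WT library for OAS3.

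**Figure D5:**
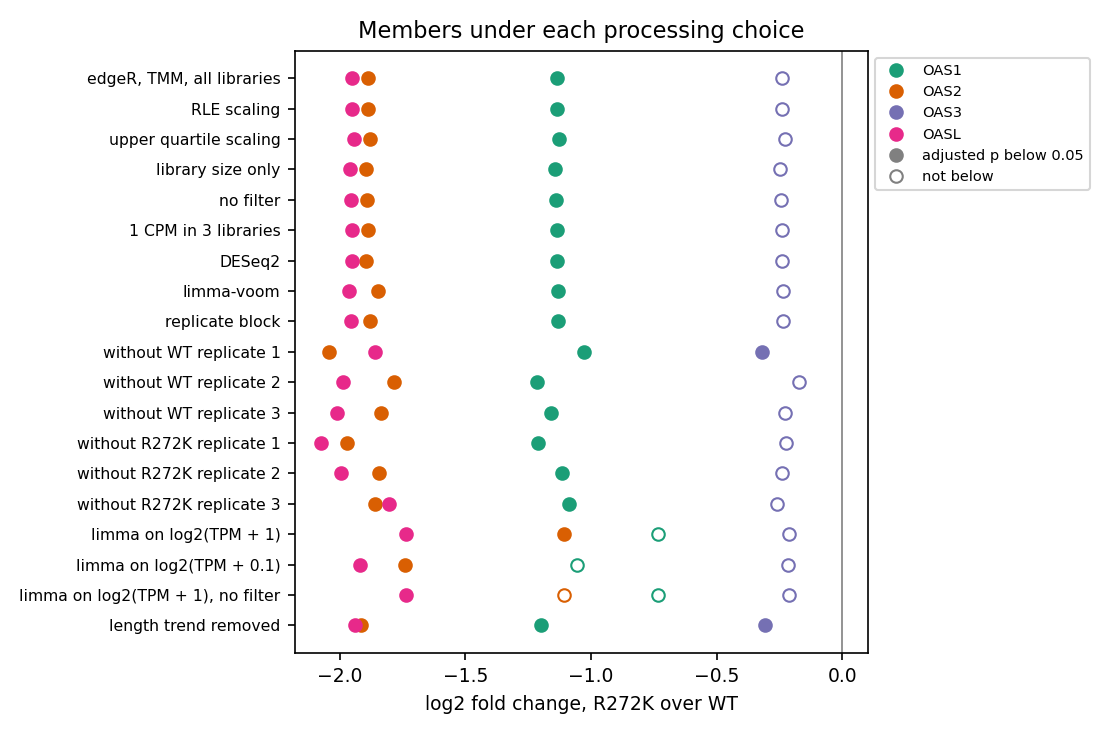
Log2 fold change (R272K over WT) of each member under the reported fit and the 18 alternatives, with filled points for an adjusted p below 0.05. All points are below 0; OASL is filled throughout, OAS3 only without WT replicate 1 or with the length trend removed, and OAS1 is open in the 3 fits to TPM.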

How the data were processed

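RNA-seq libraries of 3 WT and 3 R272K samples were compared. The authors deposited unnormalized counts and TPM for the same libraries, 1 line per gene. HTSeq 0.10.0, HISAT2 2.1.0, fastp 0.23.0 and SAMtools, on GRCh38, are listed per the submitters' processing notes, without settings or annotation release. Both tables repeat 453 symbols on 1875 extra lines, so each symbol was used once. Genes were filtered by edgeR's filterByExpr (minimum count 10, minimum total 15), scaled by TMM and tested with edgeR 4.0.16's robust quasi-likelihood test, two-sided, with group as the only term and Benjamini-Hochberg adjustment over all genes tested. The SE is the log2 fold change divided by the square root of F. Tested on simulated data for this comparison (15911 genes), 64% of genes changed 1.5-fold, 80% changed 2-fold, 94% changed 3-fold and 100% changed 4-fold were called. Of the 180 calls in that simulation 11 were false. Other software was DESeq2 1.42.0, limma 3.58.1, R 4.3.3, scipy 1.17.1, pandas 2.3.3, numpy 2.4.6, matplotlib 3.10.9 and Python 3.11.15.

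The members, lists and tests were chosen with earlier results of these data known. Named pathway genes are the called genes of each list and up to 2 others by smallest p; neighbours were taken by coordinate, and the 5 most alike genes by Pearson's r among genes at a mean of 1 CPM or more. Ratios of members used counts plus 0.5. Counts of every pair of libraries within a group differed by more than sampling noise (lowest chi-square 1.80 per degree of freedom). Alternatives were RLE, upper quartile and library size scaling, no filter or 1 CPM in 3 libraries, DESeq2, limma-voom, limma on log2(TPM + 1) and log2(TPM + 0.1), a replicate block and each library left out. The removal of the length trend and limma on unfiltered TPM were chosen after seeing the data. Some genes of these lists and neighbourhoods are not reported here.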

Additional observations from a re-analysis of the deposited data

How the results depend on the processing

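All 4 members kept their direction in the 18 alternatives. OASL kept its call in each, OAS2 lost it only by limma on log2(TPM + 1) with no filter (-1.11, adjusted p = 0.267; 1 member called), and OAS1 lost it on TPM (-0.73 with a pseudocount of 1, -1.05 with 0.1, and -0.73 with no filter, adjusted p = 0.385). OAS3 gained a call without WT replicate 1 (-0.32) and with the length trend removed (-0.31). With 1 library left out the log2 fold changes ran from -1.22 to -1.03 for OAS1, -2.04 to -1.78 for OAS2, -0.32 to -0.17 for OAS3 and -2.07 to -1.81 for OASL, and 3 or 4 members were called, in fits that called 0.202% to 2.42% of all genes lower. Over all genes 193 were called, and 474 with no filter, 104 and 101 by limma on TPM with pseudocounts of 1 and 0.1, 37 on TPM with no filter, 619 with the length trend removed and 55 to 875 with 1 library left out. The cause of these shifts was not tested. Of the pathway genes 6 were called, 4 in each of the 3 fits to TPM, and 4 to 9 with 1 library left out, all lower except JAK1, called higher without WT replicate 1. The OAS2 to OASL difference of 0.10 became -0.15 without WT replicate 1 and -0.04 without R272K replicate 3 (range -0.15 to 0.23). The replicate numbers share nothing in the labels and same-numbered libraries did not deviate together (r -0.07, -0.01 and -0.01 over genes). With the replicate block 262 genes and 3 members were called and no member's call changed. OAS2 with R272K SMAD4 rests on 19 to 23 counts a library, the thinnest depth here.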
